A study of Drosophila melanogaster with 15 samples.

Results

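The transcriptomes of Kc167 cells after knock-down of DOM-A and after knock-down of TIP60 were compared directly. The comparison rests on 6 of the 15 RNA-seq libraries of the series, 3 with dsRNA against DOM-A and 3 with dsRNA against TIP60, chosen by their titles. Kc167 is a D. melanogaster line of embryonic origin. In the other 9 libraries the cells received dsRNA against H2A.V, DOM-B or a control sequence (CTRL, which was GST in replicates 1 and 3 and GFP in replicate 2), and the 3 CTRL libraries serve here as a reference. All cells were otherwise untreated, were collected 6 days after dsRNA addition and were mixed with D. virilis cells at a ratio of 2 to 1 before RNA extraction. Protein levels were not analysed here, and RNA from a pool of cells does not tell fewer cells with an RNA from less of that RNA in each cell.

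DOM-A is the long splice variant of DOMINO, an ATPase of the SNF2 family that uses ATP hydrolysis to act on nucleosomes. TIP60 is a lysine acetyltransferase, and in Drosophila it is a subunit of the same complex as DOM-A, related to NuA4 of yeast, which acetylates the tails of histones H4 and H2A. The question put to these libraries is what differs between RNAi against the ATPase and RNAi against the acetyltransferase of one complex. Subunits of a complex can depend on each other for their stability, and mRNA levels do not show how much TIP60 protein remained after DOM-A RNAi. The paper reports that TIP60 protein fell strongly in Kc167 cells after DOM-A RNAi, while the mRNA did not change.

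A pair of primers that the study lists for making Tip60 dsRNA is given here. The paper numbers different dsRNA constructs in a replicate western blot of its knock-downs, TIP60 among them. The construct of each RNA-seq library is not given. A difference between constructs can therefore not be told apart from a difference between replicates. Tip60 (FBgn0026080) lies on the minus strand of chromosome X of BDGP6 from 4114800 to 4117487. The gene-specific parts, 20 bases each and in capitals throughout, are printed without the T7 promoter tail, and which replicates used this pair is not given in the sources used here.
Tip60_RNAi_f1: AGAGACGGCTCACAAACAGG
Tip60_RNAi_r1: ATTGATGCGTTTCTGAAGGG

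Levels are normalized counts, that is reads on a gene divided by a size factor from the D. virilis reads of the same library, and log2 fold-changes are DOM-A minus TIP60 RNAi unless stated. Reads on D. melanogaster genes numbered between 8662976 and 14679536 in the 15 libraries. The log2 spike-in ratio of a library (its D. virilis over its D. melanogaster size factor) was −0.06, −0.06 and 0.05 after DOM-A RNAi and −0.02, 0.10 and 0.00 after TIP60 RNAi. Both groups overlapped, with a difference of −0.05 (exact two-sided permutation test, p = 0.5, n = 3 per group, smallest possible p = 0.1). All 10 plasmatocyte markers, genes of the macrophage-like blood cells that Kc167 cells resemble, were measured. Their summed level was between 25006 and 30422 in CTRL and between 84626 and 99246 after DOM-A RNAi. After TIP60 RNAi it was 94931, 32659 and 74106 in replicates 1, 2 and 3, so that the sum in TIP60 replicate 2 was close to CTRL and apart from the other TIP60 libraries. The low sum came mostly from Col4a1, vkg and Hml. Pxn, srp and ush were also lowest in TIP60 replicate 2, Pxn with 562 against 1561 and 1508. These genes were lowest in replicate 2 after DOM-A RNAi as well. Sr-CI went the other way, with 560 in TIP60 replicate 2 and 276 and 219 in the other TIP60 libraries. The phagocytosis receptor NimC1 was 671 in TIP60 replicate 2, 805 and 755 in the other TIP60 libraries and between 25.4 and 96.8 in CTRL. In DOM-A replicates 1, 2 and 3, NimC1 was 431, 59.7 and 557 and Sr-CI was 240, 56.9 and 219. For NimC1, DOM-A replicate 2 was thus within the CTRL range and all DOM-A libraries lay below all TIP60 libraries. The log2 fold-changes were −1.49 for NimC1 and −1.12 for Sr-CI (adjusted p = 0.172 and 0.32 from edgeR). The part of these marker levels in the differences described was not tested. None of the 3 gut enterocyte markers passed the filter on low counts. The summed level of the 4 crystal cell markers ranged from 6.36 to 26.7 in CTRL. It was 202 to 435 after DOM-A RNAi and 99.7 to 242 after TIP60 RNAi, mostly from PPO2. In CTRL the sums of the lamellocyte, muscle, neuron and germline markers were 8345 to 9210, 118 to 154, 780 to 1095 and 2716 to 3208.

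The knock-downs were first checked at the targeted genes. The normalized count of Tip60 was 34.5, 42.5 and 46.9 after TIP60 RNAi, against 279, 389 and 292 after DOM-A RNAi and 259, 242 and 275 in CTRL. Tip60 mRNA was thus reduced to 13.3%, 17.6% and 17.1% of the CTRL library with the same number, and TIP60 replicate 2 did not stand apart from the other TIP60 libraries in this. The groups did not overlap, and the log2 fold-change was 2.95 (standard error 0.168, adjusted p = 7.58e-07 from edgeR's quasi-likelihood test). The genes tyf and dgt4 overlap Tip60 on the other strand, and reads were counted by strand. The gene dom (FBgn0020306) was counted with all its transcripts together, so that its level does not measure the depletion of DOM-A. The level of dom was 5988, 5307 and 5441 after DOM-A RNAi, 8665, 6526 and 8725 after TIP60 RNAi and 4378, 4193 and 5103 in CTRL. dom rose after TIP60 RNAi against CTRL (log2 fold-change 0.80, adjusted p = 0.000831 from edgeR). The difference between the knock-downs, −0.50 (95% interval −0.79 to −0.21), did not pass the threshold of 0.01 (adjusted p = 0.169 from edgeR), although all 3 DOM-A libraries lay below all 3 TIP60 libraries.

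The other subunits of the DOM complexes were examined next. Of the 7 subunits listed for the DOM-A complex, Tip60, the target of the dsRNA, alone passed the test. None of the 3 listed for the DOM-B complex or the 11 shared ones did. Over all genes tested, 0.0175% were called higher and 0% lower, so the absence of calls is near the background. Of the 3 DOM-B subunits, 1 had an unadjusted p under 0.05 and all DOM-A libraries above all TIP60 libraries. Nipped-A, the large scaffold protein related to TRRAP, had 6632, 6053 and 5373 normalized counts after DOM-A RNAi and 6123, 4724 and 5173 after TIP60 RNAi, with a log2 fold-change of 0.17 (95% interval −0.25 to 0.58). For E(Pc), a scaffold subunit, it was 0.03 (95% interval −0.24 to 0.29). His2Av, which encodes the histone variant H2A.V, had 7451, 7189 and 7251 after DOM-A RNAi and 7668, 6610 and 7759 after TIP60 RNAi, and its log2 fold-change was −0.03 with a wide interval of −1.06 to 1.01. The interval rests on a spread estimated over all 15 libraries, which include those with dsRNA against H2A.V itself.

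Across the transcriptome, 2 genes were higher after DOM-A than after TIP60 RNAi (0.0175% of the 11424 genes tested) and 0 were lower (0%) at an adjusted p under 0.01 in edgeR. At an unadjusted p under 0.05, 967 genes lay higher and 524 lower. DESeq2 called 29 genes higher (0.339% of the 8544 genes to which it gave an adjusted p) and 29 lower (0.339%). The study itself used DESeq2. The edgeR count of 2 higher genes became 1, Tip60, without DOM-A replicate 1, TIP60 replicate 1 or TIP60 replicate 2, and 4 without DOM-A replicate 3. In the same edgeR fit, 2214 genes differed between DOM-A RNAi and CTRL (19.4%) and 1520 between TIP60 RNAi and CTRL (13.3%), 1990 between DOM-A and DOM-B RNAi (17.4%) and 1875 between DOM-B and TIP60 RNAi (16.4%). The median standard error of a log2 fold-change was 0.149 for DOM-A against TIP60 and 0.149 for DOM-A against CTRL, over the 6456 genes whose normalized counts averaged 100 or more in the 6 libraries. Over these genes the standard deviation of the log2 fold-change was 0.32 between the knock-downs, 0.80 for DOM-A RNAi against CTRL and 0.69 for TIP60 RNAi against CTRL. For 5895 of them (91.3%) the 95% interval of the difference between the knock-downs lay within 2-fold in either direction.

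**Figure D1:**
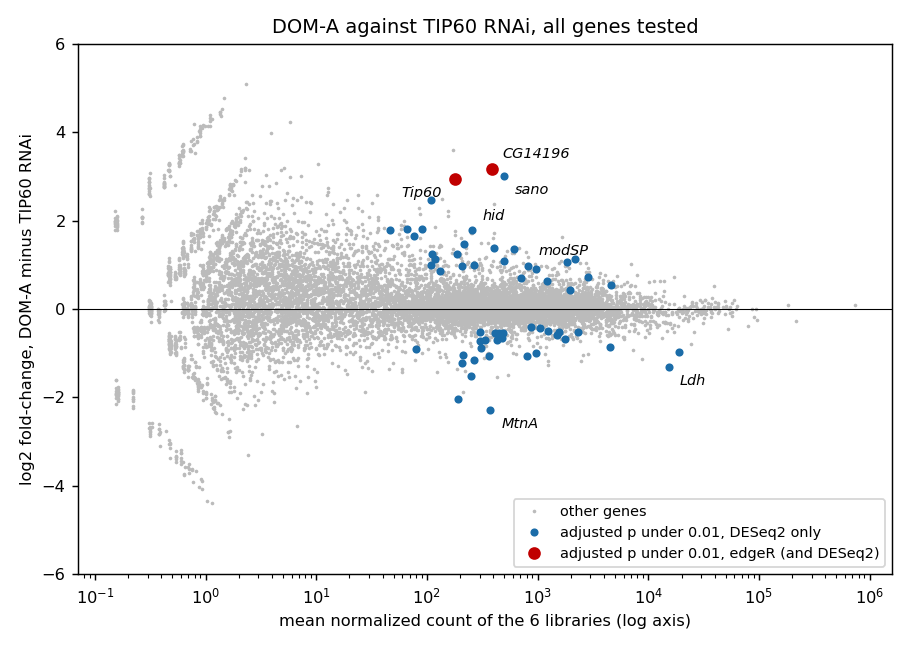
Log2 fold-change of DOM-A minus TIP60 RNAi (y axis) against the mean normalized count of the 6 libraries (x axis, log scale) for 11408 of the 11424 genes tested, the others having no read in these libraries. The 2 genes called by edgeR, Tip60 and CG14196, are red, genes called by DESeq2 alone are blue, and grey points fan out at counts below 10.

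CG14196 (FBgn0031002; chromosome X, 19236059 to 19241840, minus strand), a gene with no name beyond its number, was the only gene called by edgeR besides the knock-down target. Its normalized count was 659, 296 and 1049 after DOM-A RNAi, 56.8, 11.9 and 236 after TIP60 RNAi and 11.1, 7.41 and 79.3 in CTRL. All 3 DOM-A libraries lay above all TIP60 libraries, and in each group replicate 3 was the highest and replicate 2 the lowest. The log2 fold-change between the knock-downs was 3.18 (standard error 0.402, adjusted p = 0.0094 from edgeR). CG14196 rose after DOM-A RNAi against CTRL by 4.76 on the log2 scale (adjusted p = 7.42e-06 from edgeR), whereas its value after TIP60 RNAi, 1.58, did not pass (adjusted p = 0.0215 from edgeR). The call was lost without DOM-A replicate 1 or 2 or TIP60 replicate 1, 2 or 3 (adjusted p between 0.0142 and 0.147 from edgeR), at log2 fold-changes of 2.88 to 3.59. It was also lost without the replicate number as a block (log2 fold-change 2.69, adjusted p = 0.519 from edgeR).

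With Tip60 and CG14196, 24 genes had an adjusted p under 0.1 in edgeR, 15 of them with higher and 9 with lower levels after DOM-A RNAi. The other 22, of which 13 were higher and 9 lower, missed the threshold of 0.01 and are given as a description. All genes named from here on apart from the members of the DOM complexes were chosen after their values had been seen. modSP, a serine protease upstream of the Toll pathway, was 978, 1481 and 808 after DOM-A RNAi, 488, 571 and 556 after TIP60 RNAi and 836, 1018 and 849 in CTRL. The DOM-A libraries overlapped with CTRL and the TIP60 libraries lay below both. modSP fell after TIP60 RNAi against CTRL (log2 fold-change −0.73, adjusted p = 0.00192 from edgeR) and had a log2 fold-change of 0.98 between the knock-downs (standard error 0.14, adjusted p = 0.0263 from edgeR, 9.94e-07 from DESeq2). It is 1 of 3 genes among the 15 for which the CTRL mean lay between both knock-downs.

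For the other 12 of these 15 genes the mean of TIP60 RNAi lay between those of CTRL and DOM-A RNAi. hid, an inducer of apoptosis that antagonizes the inhibitor Diap1, was 280, 514 and 381 after DOM-A RNAi, 94.1, 74.4 and 183 after TIP60 RNAi and 37.8, 50.8 and 57.1 in CTRL. The 3 groups did not overlap. hid rose in both knock-downs, by 3.03 after DOM-A RNAi (adjusted p = 8.31e-06 from edgeR) and by 1.25 after TIP60 RNAi (adjusted p = 0.00714 from edgeR) on the log2 scale, and the difference was 1.78 (standard error 0.273, adjusted p = 0.0394 from edgeR, 3.96e-06 from DESeq2). None of the other 19 measured genes of the apoptosis list was called by either tool.

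Ac78C, an adenylyl cyclase, had 119, 83.4 and 106 normalized counts after DOM-A RNAi, 24.2, 23.9 and 39.1 after TIP60 RNAi and no more than 5.3 in CTRL. Its log2 fold-change was 1.81 (adjusted p = 0.0862 from edgeR), and it rose in both knock-downs against CTRL. LManII, a lysosomal mannosidase, was 213, 364 and 208 after DOM-A RNAi and 94.1, 110 and 123 after TIP60 RNAi, against 24.4 to 38.1 in CTRL, and likewise rose in both. Its log2 fold-change between the knock-downs was 1.24 (adjusted p = 0.0862 from edgeR). The other genes of this kind were closer to CTRL after TIP60 RNAi. S (Star), which helps the EGF receptor ligand Spitz leave the endoplasmic reticulum, was 1941, 3174 and 2303 after DOM-A RNAi, 1308, 782 and 1515 after TIP60 RNAi and 911 to 1090 in CTRL. S rose after DOM-A RNAi (1.32, adjusted p = 0.000318 from edgeR), with a value of 0.26 after TIP60 RNAi (adjusted p = 0.383 from edgeR). plum, an immunoglobulin family receptor of neurons, behaved likewise, with 2709, 2988 and 3254 after DOM-A RNAi, 1274, 914 and 1983 after TIP60 RNAi and 1038 to 1132 in CTRL. DAAM, a formin that assembles actin filaments, was 606, 1472 and 605 after DOM-A RNAi, while the TIP60 libraries had 326, 331 and 324.

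sano, a gene on 2R that shares part of its position with Vha100-3 on the other strand, spread most among the TIP60 libraries. It was 530, 899 and 1003 after DOM-A RNAi, 77.3, 19.9 and 472 after TIP60 RNAi and 30.0, 18.0 and 135 in CTRL. TIP60 replicate 2 was thus at the level of its CTRL library, TIP60 replicate 3 was just below the lowest DOM-A library, and the log2 fold-change of 3.01 had a standard error of 0.542 (adjusted p = 0.0862 from edgeR).

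**Figure D2:**
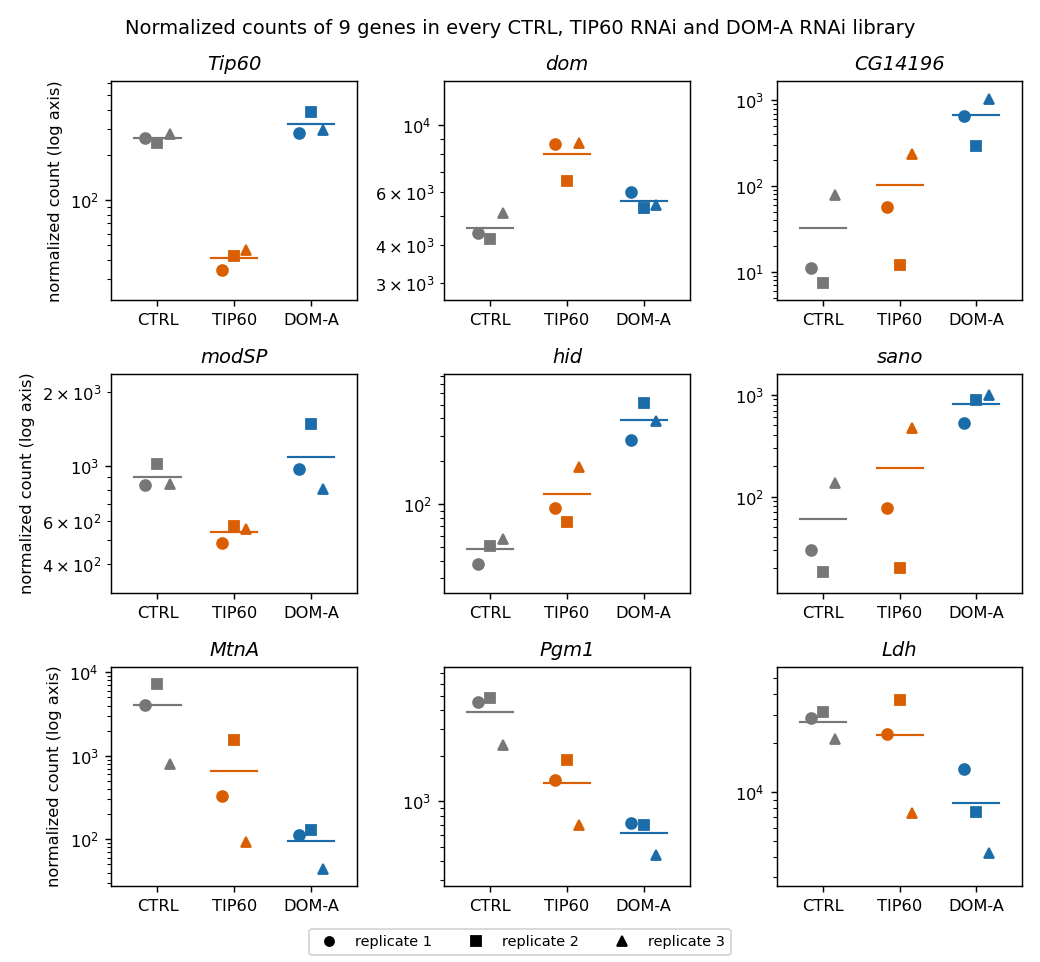
Normalized counts (log axis, scaled separately for each gene) of 9 genes in the CTRL, TIP60 RNAi and DOM-A RNAi libraries, with a symbol for each replicate number and a line at the mean of each group (n = 3). Tip60 is low only after TIP60 RNAi, from 34.5 to 46.9, and for CG14196, hid, sano, MtnA and Pgm1 the mean of the TIP60 libraries lies between those of CTRL and DOM-A RNAi.

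The 9 genes with lower levels after DOM-A RNAi included enzymes of carbon metabolism. For 8 of them the TIP60 mean again lay between CTRL and DOM-A RNAi. MtnA, a metallothionein that binds copper and other metals, was 114, 129 and 44.1 after DOM-A RNAi, 327, 1547 and 91.8 after TIP60 RNAi and 4073, 7279 and 801 in CTRL. It fell in both knock-downs against CTRL, by 5.14 after DOM-A RNAi (adjusted p = 3.69e-06 from edgeR) and by 2.85 after TIP60 RNAi (adjusted p = 0.000182 from edgeR) on the log2 scale. Replicate 3 was the lowest in each group, and TIP60 replicate 3 overlapped with the DOM-A libraries. The log2 fold-change between the knock-downs was −2.29 (standard error 0.426, adjusted p = 0.0862 from edgeR, 3.29e-05 from DESeq2). For MtnA it was −1.53 without TIP60 replicate 2 and −1.32 without both libraries of replicate 2. Pgm1, phosphoglucomutase, which links glycogen to glycolysis, was 715, 693 and 440 after DOM-A RNAi, 1376, 1867 and 698 after TIP60 RNAi and 4506, 4850 and 2351 in CTRL. It fell in both knock-downs against CTRL, and its log2 fold-change between them had a standard error of 0.201 and a 95% interval of −1.43 to −0.57 (adjusted p = 0.0984 from edgeR).

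Hibch, an enzyme of valine breakdown, showed little spread, with 1091, 1024 and 968 after DOM-A RNAi, 1575, 1492 and 1312 after TIP60 RNAi and 1745 to 2075 in CTRL. No library of one group overlapped with another group, and the log2 fold-change between the knock-downs was −0.50 (standard error 0.0957, adjusted p = 0.0862 from edgeR, 1.65e-05 from DESeq2). Erk7, an atypical MAP kinase, was 260, 244 and 210 after DOM-A RNAi, 523, 621 and 347 after TIP60 RNAi and 754 to 977 in CTRL. Orcokinin, a neuropeptide gene, was 49.7, 70.2 and 45.1 after DOM-A RNAi, 117, 112 and 80.1 after TIP60 RNAi and 322 to 508 in CTRL. Both fell in each knock-down against CTRL in edgeR. CG7607 was the exception in this group of 9. It was 136, 203 and 148 after DOM-A RNAi and 360, 534 and 233 after TIP60 RNAi, with CTRL at 389, 479 and 228, and it fell only in the test of DOM-A RNAi against CTRL (log2 fold-change −1.12, adjusted p = 0.00164 from edgeR; 0.02 and adjusted p = 0.967 after TIP60 RNAi), while the difference between the knock-downs was −1.14 (adjusted p = 0.0931 from edgeR).

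Of the 24 genes, Tip60 and CG14196 included, 20 had all 3 DOM-A libraries on one side of all 3 TIP60 libraries. Over all genes tested, 7.62% had the DOM-A libraries above and 4.26% had them below. The mean of TIP60 RNAi lay between CTRL and DOM-A RNAi for 20 of the 24 genes, DOM-A RNAi lay in between for 0 and CTRL for 4. Over the 6456 genes with a mean of at least 100, the shares were 49.6%, 36.5% and 13.8%. These orders share the libraries by which the 24 genes were picked and are given as a description.

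The size of the difference varied between the replicate numbers. With a pseudocount of 1, 123 of the 6456 genes differed over 2-fold between DOM-A and TIP60 replicate 1, 496 between the libraries of replicate 2 and 37 between those of replicate 3. Of the 24 genes, 17 had their largest difference in replicate 2 and 20 their smallest in replicate 3. The standard deviation over all 6456 genes had the same order, 0.35, 0.63 and 0.25 in pairs 1, 2 and 3. The counts are therefore not particular to the 24 genes, which were also picked by these libraries. Against the CTRL library of the same number, TIP60 replicate 3 had the fewest genes over 2-fold away, 486, compared with 656 and 773 in TIP60 replicates 1 and 2, and the DOM-A libraries had 906, 840 and 752. Over 2-fold differences in the same direction in all 3 pairs were found for 10 genes, 8 higher after DOM-A RNAi (Tip60, CG14196, CG9717, hid, sano, Sytalpha, upd2 and CG13458) and 2 lower (MtnA and Nepl19). upd2, a ligand of the JAK-STAT pathway, shows how strongly replicates can vary beneath such a pattern, with 297, 63.5 and 973 after DOM-A RNAi and 61.5, 25.2 and 430 after TIP60 RNAi (adjusted p = 0.305 from edgeR). Nepl19, a gene of the neprilysin-like family, was 188, 46.5 and 143 after DOM-A RNAi and 424, 113 and 306 after TIP60 RNAi, and CTRL lay between 65.7 and 132.

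Gene lists of pathways and complexes were then read against the transcriptome. Of the 1259 distinct genes of the 45 lists, edgeR called Tip60 alone, and DESeq2 called 15, which is 1.32% of the 1137 to which it gave an adjusted p and compares with 0.679% of all genes. Nothing is read from these shares, since the lists were chosen with earlier results known. All genes tested had a median of 0.06, with 41.2% of values negative and 58.8% positive. Glycolysis, the breakdown of glucose to pyruvate and lactate, had the lowest median of all lists. All 12 measured enzymes had a negative log2 fold-change, with a median of −0.56, and 10 of 12 had an unadjusted p under 0.05, compared with 524 of 11424 genes with such a p and a negative value overall. The DOM-A and TIP60 libraries overlapped for each of the 12 enzymes, whereas 4.26% of all genes tested had all DOM-A libraries below. No enzyme passed the threshold in edgeR (lowest adjusted p = 0.121), and DESeq2 called 3, Pgi, Pglym78 and Ldh. The list was compiled with lower glycolytic genes already known from these samples and is not independent evidence of the direction.

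Ldh, lactate dehydrogenase, which turns pyruvate into lactate, was 13855, 7594 and 4231 after DOM-A RNAi, 22632, 36919 and 7444 after TIP60 RNAi and 28383, 31129 and 21146 in CTRL. The groups of both knock-downs overlapped because TIP60 replicate 3 lay below DOM-A replicates 1 and 2. Replicate 3 was the lowest in each group, CTRL included. Within the pairs of replicates 1, 2 and 3 the log2 difference in Ldh was −0.71, −2.28 and −0.82. Ldh fell after DOM-A RNAi against CTRL (log2 fold-change −1.75, adjusted p = 0.000911 from edgeR), its value after TIP60 RNAi was −0.45 (adjusted p = 0.319 from edgeR), and the difference of −1.31 between the knock-downs had a standard error of 0.314 (adjusted p = 0.148 from edgeR, 0.00667 from DESeq2). Without TIP60 replicate 2 the difference in Ldh was −0.85 (adjusted p = 0.514 from edgeR). Pgi, the isomerase of glucose 6-phosphate, was 1313, 1236 and 1014 after DOM-A RNAi, 1862, 2363 and 1258 after TIP60 RNAi and 2506 to 3567 in CTRL, with a log2 fold-change of −0.58 between the knock-downs (adjusted p = 0.121 from edgeR). Tpi, triosephosphate isomerase, fell furthest against CTRL in both knock-downs. It was 537, 577 and 294 after DOM-A RNAi, 709, 975 and 389 after TIP60 RNAi and 2544 to 3741 in CTRL. PyK, pyruvate kinase, was 8901, 7541 and 5475 after DOM-A RNAi and 11759, 15935 and 6951 after TIP60 RNAi, with CTRL at 8203 to 10673. Its log2 fold-change of −0.63 was −0.39 without TIP60 replicate 2. Hex-A, the hexokinase of the first step, had the smallest value of the list, −0.12 (95% interval −0.39 to 0.15).

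Against CTRL, 10 of the 12 enzymes fell after DOM-A RNAi and 5 after TIP60 RNAi in edgeR, with medians of −1.20 and −0.60. Over all genes tested, 10.4% fell after DOM-A RNAi and 8.43% after TIP60 RNAi. These comparisons share the CTRL libraries. In the pairs of replicates 1, 2 and 3 the median of the list was −0.40, −0.78 and −0.26, against 0.01, 0.15 and −0.04 for all genes. Without TIP60 replicate 2 the median of the list was −0.34, the value nearest to 0 among the 19 alternatives, and all 12 enzymes stayed negative in each of them.

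**Figure D3:**
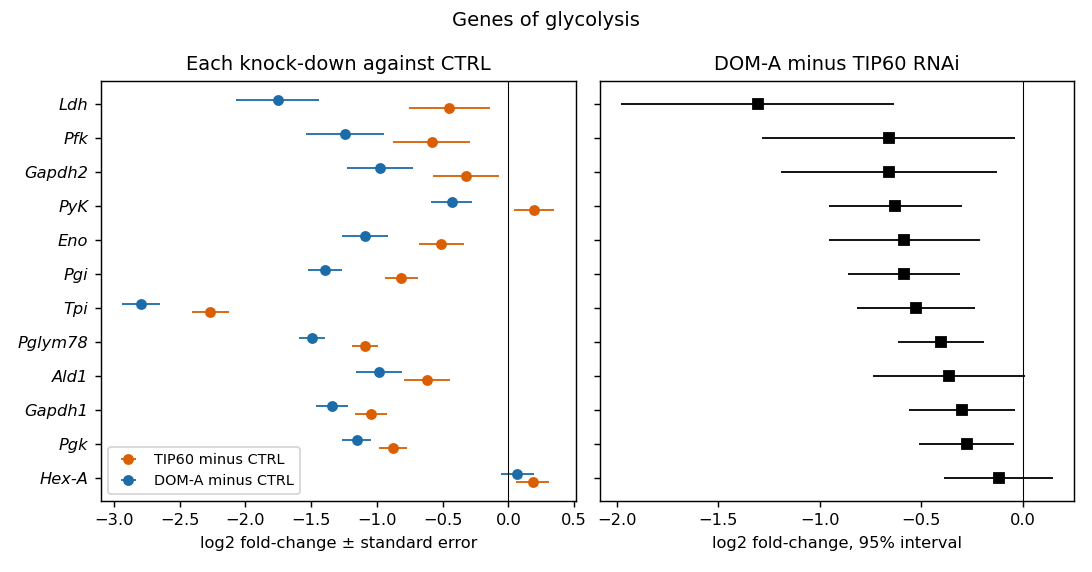
Log2 fold-changes of the 12 measured genes of glycolysis: left, each knock-down against CTRL with standard errors, and right, DOM-A minus TIP60 RNAi with 95% intervals. The right-hand values run from −1.31 for Ldh to −0.12 for Hex-A, and 10 of the 12 intervals lie below 0.

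Other lists of energy metabolism had medians on the same side, with smaller values. Negative values made up 41.2% of all genes tested. In the pentose phosphate and trehalose list, 9 of 12 members were negative with a median of −0.20, and DESeq2 called Taldo, transaldolase (1438, 1294 and 1120 after DOM-A RNAi, 1893, 2363 and 1356 after TIP60 RNAi). Without TIP60 replicate 2 the median of this list was −0.09. In the list of the TCA cycle and its associated enzymes, 15 of 17 members were negative with a median of −0.18 and none was called by either tool. The lowest p in that list belonged to Men, malic enzyme, with 15375, 14636 and 11902 after DOM-A RNAi and 22875, 23794 and 14397 after TIP60 RNAi (log2 fold-change −0.53, adjusted p = 0.163 from edgeR), where the DOM-A libraries were near CTRL (13552 to 15545). Of 80 members of oxidative phosphorylation 61 were negative, with a median of −0.11, and of 71 mitochondrial ribosomal proteins 61 were, with a median of −0.15. The member called by DESeq2 was UQCR-C1, a core protein of respiratory complex III, with 2058, 1954 and 1725 after DOM-A RNAi, 2880, 2942 and 2361 after TIP60 RNAi and 4689 to 5950 in CTRL. Its groups did not overlap, and the log2 fold-change was −0.51 (adjusted p = 0.129 from edgeR). Of 33 aminoacyl-tRNA synthetases, which charge tRNAs for translation, 27 were negative with a median of −0.13. The 89 cytosolic ribosomal protein genes had a median of −0.01, and 85 of them had a 95% interval within 2-fold.

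The genes of iron storage differed strongly among the TIP60 libraries. Fer1HCH and Fer2LCH, the ferritin subunits, are neighbours on 3R that overlap on opposite strands. Fer1HCH was 5092, 4765 and 4173 after DOM-A RNAi, 8499, 25159 and 4941 after TIP60 RNAi and 16219, 21375 and 8581 in CTRL. TIP60 replicate 2 was above its CTRL library whereas TIP60 replicate 3 was within the range of the DOM-A libraries. The log2 fold-change of Fer1HCH between the knock-downs was −1.13 (adjusted p = 0.156 from edgeR), and −0.69 without TIP60 replicate 2 (adjusted p = 0.514 from edgeR).

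Among lists with higher medians, 20 of 22 measured genes of the ecdysone response, the pathway of the insect steroid hormone, were positive with a median of 0.28, and none was called by either tool. Positive values made up 58.8% of all genes tested. EcR, the receptor of the hormone, was 684, 1078 and 507 after DOM-A RNAi and 531, 381 and 492 after TIP60 RNAi, overlapping between the groups (log2 fold-change 0.70, adjusted p = 0.358 from edgeR). For EcR it was 0.27 without DOM-A replicate 2. Of 33 Polycomb and trithorax genes, which keep developmental genes silent or active, 30 were positive with a median of 0.16. Of these, trx, a histone methyltransferase, had the lowest p, with 2705, 2873 and 2403 after DOM-A RNAi and 2004, 1530 and 2126 after TIP60 RNAi (log2 fold-change 0.51, adjusted p = 0.163 from edgeR). Its DOM-A libraries were near CTRL (2342 to 3020). The median of the Polycomb and trithorax list was 0.08, 0.34 and 0.00 in the pairs of replicates 1, 2 and 3, against 0.01, 0.15 and −0.04 for all genes. Without both libraries of replicate 2 the median of the list was 0.03.

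Antimicrobial peptides and genes of haemocyte identity included members called against CTRL in both knock-downs. Over all genes tested, 8.96% rose after DOM-A RNAi and 4.88% after TIP60 RNAi, whereas 0.0175% were higher in edgeR between the knock-downs. A list with no call between the knock-downs is therefore near the background. Of 12 measured antimicrobial peptide genes, 4 rose after DOM-A RNAi and 4 after TIP60 RNAi against CTRL in edgeR, and none was called between the knock-downs by either tool. Drs (Drosomycin), an antifungal peptide induced by the Toll pathway, was 652, 409 and 271 after DOM-A RNAi, 725, 117 and 251 after TIP60 RNAi and 25.8 to 31.1 in CTRL, with a log2 fold-change between the knock-downs of 0.38 and an interval of −0.59 to 1.35. For Drs it was −0.11 without TIP60 replicate 2. AttD, an attacin, was 52.9, 110 and 108 after DOM-A RNAi and 70.8, 66.4 and 113 after TIP60 RNAi, with an interval of −0.65 to 0.81 for the difference. The other 10 antimicrobial peptide genes averaged fewer than 50 normalized counts in each group, and 1 of the 12 had an interval within 2-fold. The median of the list was −0.45. Of 33 genes of haemocyte identity and scavenger receptors, 18 rose after DOM-A RNAi and 17 after TIP60 RNAi against CTRL, and 0 were called between the knock-downs by edgeR or DESeq2, 2 having an unadjusted p under 0.05 with higher and 3 with lower values.

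**Figure D4:**
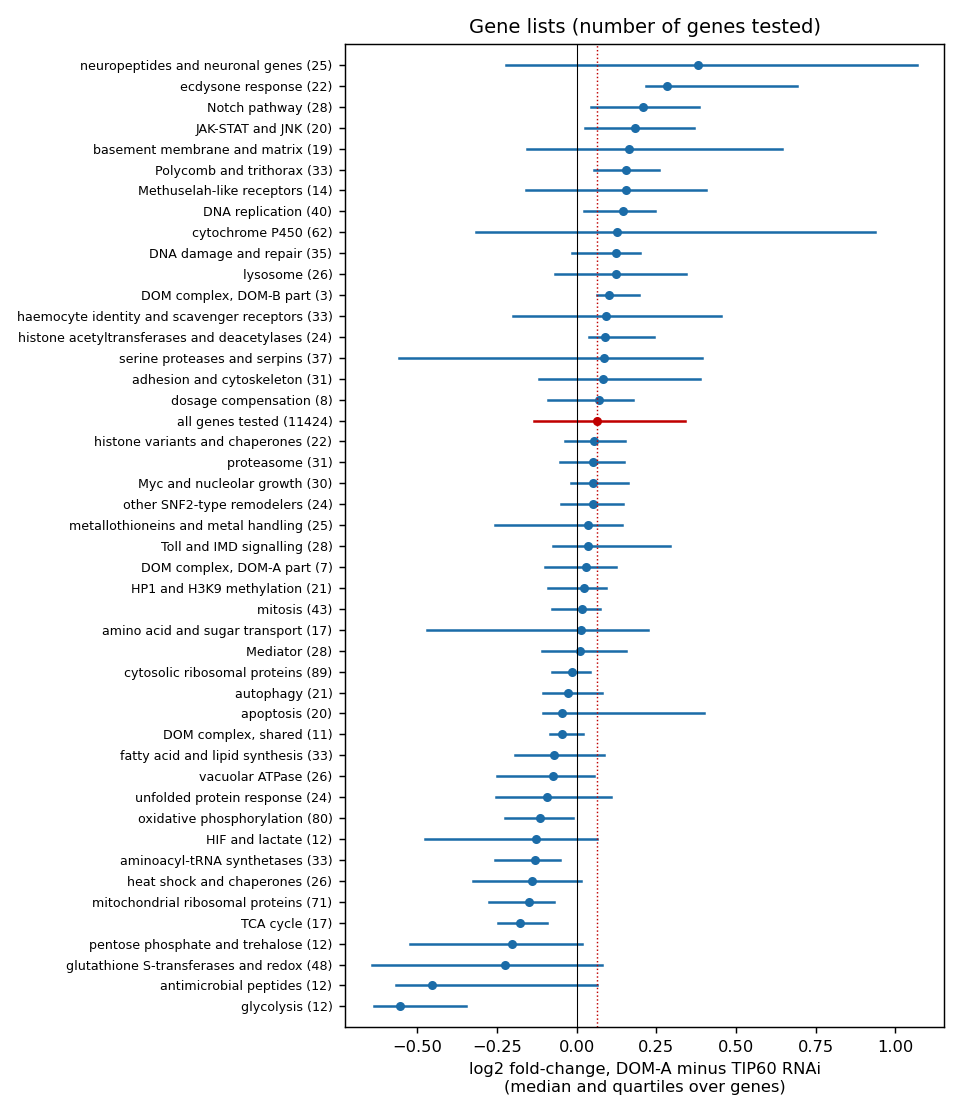
Median (point) and quartiles (line) of the log2 fold-change of DOM-A minus TIP60 RNAi over the measured genes of 45 lists and over all 11424 genes tested (red, dotted line at 0.06). Glycolysis is lowest at −0.56, and lists with few reads such as antimicrobial peptides have wide quartiles.

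Chromosome 4 stood out when the genes were arranged by position. This small chromosome is largely heterochromatic, its genes are bound by the protein POF, and its expression is known to be regulated as a unit. Of its 93 genes tested, 88 had a positive and 5 a negative log2 fold-change between DOM-A and TIP60 RNAi, with a median of 0.31. The medians of X, 2L, 2R, 3L and 3R lay between 0.05 and 0.08, and 58.8% of all genes tested were positive. Among the genes with a mean of at least 100, all 52 of chromosome 4 were positive (median 0.28), compared with 3674 of 6456 over all chromosomes (median 0.04). No gene of chromosome 4 was called by edgeR or DESeq2. Of the 93, 28 had an unadjusted p under 0.05 with a positive value and 0 with a negative one. Over all 11424 genes tested these numbers were 967 and 524. For 26 of the 93 all DOM-A libraries lay above all TIP60 libraries, and for 0 below. The shares over all genes were 7.62% above and 4.26% below. Chromosome 4 was singled out after its values had been seen.

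The higher values of chromosome 4 were present in every pair, with medians of 0.29, 0.49 and 0.14 in replicates 1, 2 and 3, against 0.01, 0.15 and −0.04 for all genes. Over the 19 alternatives and the fit reported here the median of chromosome 4 lay between 0.23 and 0.41. Against CTRL it was 0.47 after DOM-A RNAi and 0.05 after TIP60 RNAi, and 20 of its genes rose and 1 fell after DOM-A RNAi, whereas 2 rose and 2 fell after TIP60 RNAi. The shares over all genes also differed between the knock-downs, with 8.96% against 4.88% higher and 10.4% against 8.43% lower. CaMKII, a calcium-dependent kinase of synapses, was 4415, 4085 and 4058 after DOM-A RNAi, 2738, 2409 and 3312 after TIP60 RNAi and 1710 to 2462 in CTRL, with a log2 fold-change of 0.58 between the knock-downs (standard error 0.195, adjusted p = 0.248 from edgeR). PlexA, a receptor for semaphorins, was 5335, 5503 and 4877 after DOM-A RNAi, 3638, 3107 and 4351 after TIP60 RNAi and 3592 to 3904 in CTRL. Crk, an adaptor of signalling kinases, was 1026, 899 and 874 after DOM-A RNAi, 695, 748 and 730 after TIP60 RNAi and 612 to 663 in CTRL. In these 3 genes the DOM-A libraries lay above all TIP60 libraries. ci, the transcription factor of the Hedgehog pathway, was 176, 631 and 177 after DOM-A RNAi and 102, 240 and 136 after TIP60 RNAi, against 33.3 to 64.6 in CTRL, and rose in both knock-downs against CTRL. The log2 fold-change of ci between the knock-downs was 0.95, and 0.42 without DOM-A replicate 2. asRNA:CR43957, annotated on the other strand and overlapping ci, was positive as well (1.03, adjusted p = 0.17 from edgeR). Pof itself, the gene of the chromosome 4 binding protein and located on 2R, was 136, 169 and 109 after DOM-A RNAi and 144, 149 and 151 after TIP60 RNAi, with a log2 fold-change of −0.11 (95% interval −0.46 to 0.23).

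**Figure D5:**
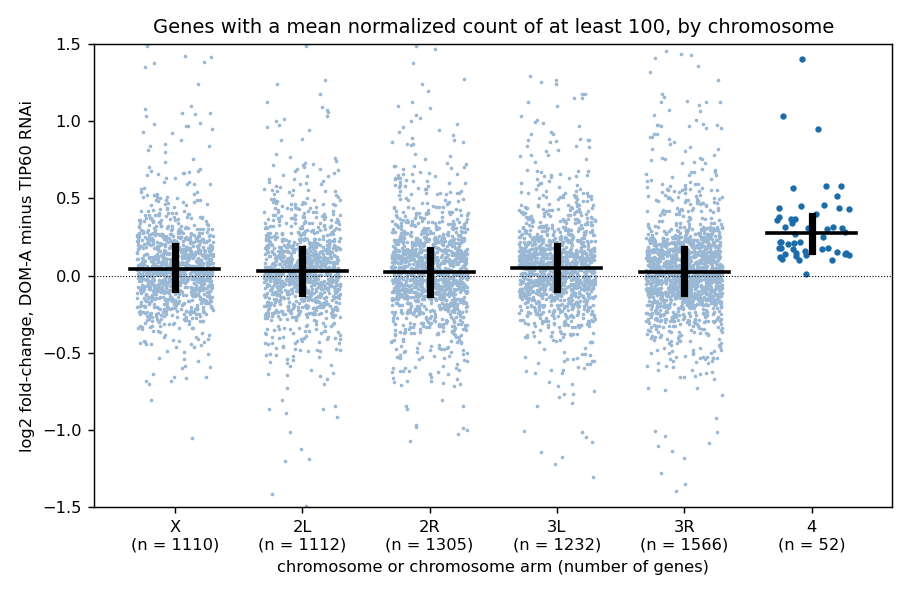
Log2 fold-change of DOM-A minus TIP60 RNAi for each gene averaging 100 or more normalized counts, by chromosome or arm, with the median (horizontal bar) and quartiles (vertical bar). All 52 genes of chromosome 4 lie above 0, and 24 genes in all lie outside the plotted range of ±1.5.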

How the data were processed

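RNA was poly(A)-selected and directional libraries were sequenced as single reads. Per the labels and methods, the authors mapped reads with STAR 2.5.3a to the D. melanogaster and, separately, the D. virilis genome, dropped reads with several positions, and deposited raw read counts per gene. The counts of the library's strand were used. Genes with at least 1 read in 6 of the 15 libraries were kept, 11424 of D. melanogaster and 8941 of D. virilis, and median-of-ratios size factors of D. virilis set the library sizes. Spike-in scaling carries any error in the added cells into every level.

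edgeR 4.0.16 (R 4.3.3, limma 3.58.1) was fitted on all 15 libraries with group and replicate number, with its quasi-likelihood test, Benjamini-Hochberg adjustment over all genes tested and a threshold of 0.01. Symbols were taken from a newer BDGP6 annotation, which matched 11327 of the 11424 genes tested. Replicate numbers come from the labels. Replicate number was used as a block because the study's methods did so. The study's own test was DESeq2 with D. virilis size factors, the replicate as a covariate and a threshold of 0.01. With these settings DESeq2 1.42.0 called 29 genes higher and 29 lower here, so the edgeR count is not that of the study's procedure. Deviations from the group means correlated across genes by 0.11, 0.24 and 0.43 for the DOM-A and TIP60 libraries of number 1, 2 and 3. For libraries of unlike number the correlations lay between −0.32 and 0.11. Replicates are biological per the methods, and intervals are those of the fit. The comparison and the lists were chosen with earlier results of these data known. The naming rule took the subunits of the DOM complexes, called list members and, among called genes with a mean of at least 100 and one direction in all 3 pairs, the 10 with the largest change and the 5 with the smallest p each way. It gave Tip60, CG14196 and the subunits, and other genes were added after their values were seen. Alternatives were DESeq2 1.42.0, TMM and other scalings, unstranded counts, other filters, no replicate block, the 6 libraries alone and leaving out libraries. Scripts were tested on simulated data. Promoter motifs were not analysed here.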

Additional observations from a re-analysis of the deposited data

How the results depend on the processing

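Tip60 was called in each alternative, with log2 fold-changes between 2.58 and 3.12. The number of genes higher after DOM-A RNAi, 2 as reported, was 4 without a filter on low counts, 1 with at least 10 reads in every library, 1 with the 6 libraries alone, 4 at a threshold of 0.05 and 29 in DESeq2. Without the replicate block it was 1, and CG14196 then had an adjusted p of 0.519 in edgeR. It lay between 1 and 5 with libraries left out. Leaving out both libraries of a number, an alternative added after the data were seen, gave 1, 1 and 5 for numbers 1, 2 and 3. Genes lower numbered 0, except for 29 in DESeq2 and 1 without DOM-A replicate 2, a range of 0 to 1 over the libraries left out. List members called numbered 1, with 2 under size factors of D. melanogaster counts, 3 without a filter, 15 in DESeq2 and 1 to 2 with libraries left out. The causes of these shifts were not tested. The median of all genes, 0.06, lay between 0.00 and 0.12, and total D. virilis counts gave 0.12. The difference in spike-in ratio stayed negative throughout, −0.09 to −0.01. Of 700 values for 37 genes under the alternatives, 0 reversed, 9 lost and 34 gained a call. Of 12 antimicrobial peptide genes, 1 (Drs) passed the filter of 10 reads in every library, so that the list's median could not be compared under it. Genes with few reads had wide intervals, so that small differences were not detectable there.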
